A study of Mus musculus with 6 samples.

Results

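Among 17428 genes measured in EpH4 mouse mammary epithelial cells, 160 genes (0.918%) were low after TGFβ1 treatment and were still low after TGFβ1 had been removed. A gene was taken as a member when its highest value in any M or RE library was no more than 1/2 of the lower of its E values (a fold of at least 2). The lower E value also had to reach 1 ppm, and the mean RE value had to lie between 0.5 and 2 times the mean M value. Values are in ppm of all sequenced bases of a library. The members were chosen by their values in all 6 libraries and so by all 3 comparisons between stages, and the differences between stages that follow describe the members and were not tested.

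EpH4 is a non-tumour mammary epithelial line, grown here in D-MEM/F12 with fetal bovine serum, penicillin-streptomycin and insulin. E cells received no TGFβ1, M cells were treated with it for 7 days, and RE cells were M cells returned to normal medium for another 4 days. Each stage has 2 sequenced libraries of total RNA, described as biological replicates, and all come from 1 cell line. The labels name no untreated culture kept for as long as the M or RE cells, so time in culture and TGFβ1 exposure cannot be told apart.

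TGFβ1 is a secreted cytokine that signals through Smad proteins and drives epithelial to mesenchymal transition (EMT). In EMT, repressors of the Zeb and Snail families bind E-box sequences at epithelial genes, and cells lose tight junctions and apical-basal polarity. A separate pathway that recurs among the members is the integrated stress response. There the factor Atf4 binds C/EBP-ATF response elements and induces genes of amino acid synthesis, uptake and tRNA charging when amino acids run short or protein folding is impaired.

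Sequences of promoters (250 bases before to 50 bases after a gene's start, from RefSeq, build GRCm38.p6) were on hand for 116 members and for 10297 of the 13893 genes with enough coverage to be tested. Of 14 short motifs searched on both strands, the C/EBP-ATF element and the Zeb and Snail E-box are described first. They were picked, after the matches were seen, for their shares in 2 of the named groups of members. The C/EBP-ATF element, searched as TGATGNAA, was found in 7 of 13 promoters of stress response members (53.8%), in 1 of 103 promoters of the other members (0.971%) and in 2.87% of all promoters. The 7 genes were Chac1, Fgf21, Pck2, Pycr1, Slc7a11, Trib3 and Vldlr. Of 36 promoters of stress response genes that were not members, 11 held it (30.6%), and both sets were drawn from genes known for this pathway. The stretches below are the matches that lie wholly before the gene's start, read 5′ to 3′ on the gene's strand, with the element in capitals on whichever strand it matched.
Chac1, chr2:119351021-119351084, plus strand: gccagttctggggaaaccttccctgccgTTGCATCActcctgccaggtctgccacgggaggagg
Slc7a11, chr3:50443625-50443707, minus strand: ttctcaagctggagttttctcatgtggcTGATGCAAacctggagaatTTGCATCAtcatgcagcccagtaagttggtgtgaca
Fgf21, chr7:45615594-45615657, minus strand: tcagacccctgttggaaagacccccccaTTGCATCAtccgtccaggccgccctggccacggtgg
Pycr1, chr11:120643816-120643879, minus strand: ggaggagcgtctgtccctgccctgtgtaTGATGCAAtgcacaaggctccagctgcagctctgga
Pck2, chr14:55540135-55540198, plus strand: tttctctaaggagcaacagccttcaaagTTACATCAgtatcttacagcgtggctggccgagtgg
Vldlr, chr19:27216792-27216855, plus strand: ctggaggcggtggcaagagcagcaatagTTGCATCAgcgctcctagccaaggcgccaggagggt
In Slc7a11 the element occurred at 2 places, 66 and 47 bases before the start, on opposite strands. The 9-base form TGATGNAAT, which contains the shorter one, was in 2 of the 13 promoters against 0.583% of all.

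The E-box CACCTG was found in 35 of 116 member promoters (30.2%) and in 21.4% of all promoters. Among junction and surface members it was in 6 of 10 (60%), namely Pard6b, Prkcz, Cldn4, Cldn7, Mslnl and Epcam, the present symbol of the gene listed as Tacstd1. Each of the 6 genes had a promoter with 2 copies. The stretches below show both copies for Pard6b and Cldn7. For Epcam the stretch shows the copy 187 bases before the start and leaves out the one 19 bases before it. The E-box is in capitals on whichever strand it matched.
Pard6b, chr2:168080835-168080951, plus strand: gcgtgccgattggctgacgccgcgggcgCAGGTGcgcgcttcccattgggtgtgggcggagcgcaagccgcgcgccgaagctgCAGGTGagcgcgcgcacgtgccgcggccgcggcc
Cldn7, chr11:69965296-69965397, plus strand: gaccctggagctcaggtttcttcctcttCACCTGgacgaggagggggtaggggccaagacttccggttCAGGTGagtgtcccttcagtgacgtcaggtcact
Tacstd1 (Epcam), chr17:87635764-87635825, plus strand: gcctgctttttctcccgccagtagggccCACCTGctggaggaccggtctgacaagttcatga
The looser form CANNTG, which contains CACCTG, was in 78.4% of member promoters and 68.1% of all. Of the other patterns, the Smad CAGA box CAGACA was in 19.8% of member promoters and 19.2% of all, AP-1 (TGANTCA) in 4.31% and 6.82%, and CRE (TGACGTCA) in 3.45% and 3.62%. CRE was also in 3 of the 10 junction and surface promoters. The Grhl pattern AACCNGTT was in 2.59% and 2.24%, the Ets pattern CCGGAAGT in 4.31% and 8.68%, and the Klf pattern CACCC in 75.9% and 66.8%. The Stat pattern TTCNNNGAA was in 6.03% and 8.25%, and the unfolded protein pattern TGACGTG in 2.59% and 3.13%. Both the ERSE pattern and the palindromic Smad element GTCTAGAC were in no member promoter, against 0.175% and 0.311% of all. A match gives letters in this window and not a bound site.

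**Figure D1:**
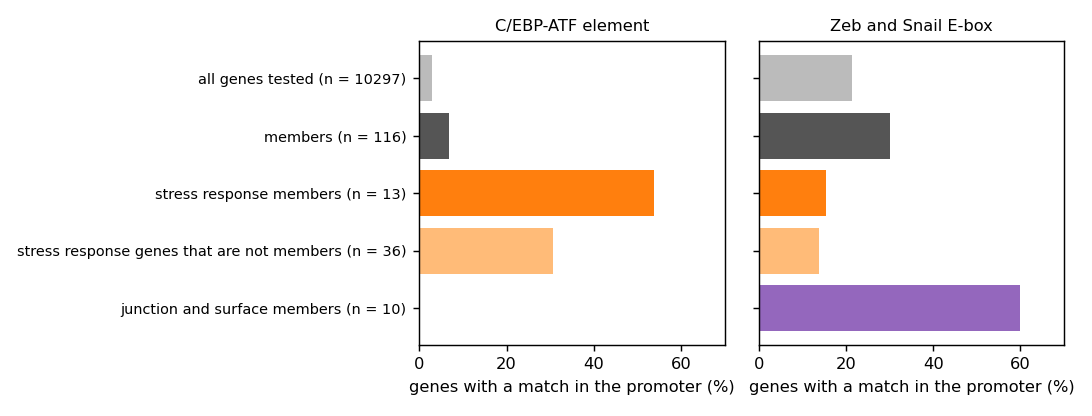
Share of genes with a match in the promoter (percent, bars from 0) for the C/EBP-ATF element (left) and the Zeb and Snail E-box (right), with the number of promoters in brackets. The C/EBP-ATF element stands at 53.8% in stress response members against 2.87% of all genes tested, and the E-box at 60% in junction and surface members against 21.4%.

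The libraries held between 35782513 and 47928557 reads' worth of 50 bases. Dividing by library totals left a median difference between M and E of -0.29 over all genes tested on the log2 scale, and of -0.08 between RE and E. TMM scaling, which centres the bulk of genes, removes this shift, and under it 103 of the 160 genes still met the rule. The members with the highest mean E levels, Msln, Sars, Lonp1, Ghitm, St14 and Cars, were among those that did not. In all 160 the M and RE values stayed below both E values under TMM and under median-of-ratios scaling. They reached at most 64.0% and 63.5% of the lower E value. The TMM factors ran from 0.871 in an M library to 1.12 in an E library, too narrow a range to undo the fold that the rule requires. That the members stayed below E therefore follows from the rule and is no test of them. The E replicates differed most, with an SD of log2 differences of 0.56 over genes against 0.32 for M and 0.31 for RE. Markers of fibroblasts summed to 157 to 182 ppm in E, 905 to 996 ppm in M and 1107 to 1283 ppm in RE, with Thy1 and Dpt of the 11 measured at the floor of 3 reads' worth. Epithelial markers, all 15 measured and 4 of them members, summed to 4235 to 4587 ppm in E, 2789 to 2944 ppm in M and 1639 to 1766 ppm in RE. Keratins weigh heavily in these sums. Means of Krt7, Krt18 and Krt8 were 1410, 506 and 283 ppm in M and 375, 299 and 131 ppm in RE. Not every marker followed the sum from M to RE: mean Grhl2 rose from 14.9 to 50.6 ppm and mean Cldn3 from 44.2 to 63.7 ppm. The part of such shifts in the members' values was not tested. In bulk RNA, fewer cells of a type and less RNA per cell cannot be told apart.

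Of the 272 genes that met the level and fold conditions alone, 160 were members. In 97 genes RE was above 2 times M, in 14 it was below 0.5 times M, and 1 was at 0 in every M and RE library. Members kept a median of 26.9% of the mean E level in M and 30.6% in RE. The mean of M and RE was under 3-fold below E in 53 members, 3 to 4-fold below in 52 and more than 4-fold below in 55. Mean E levels were below 10 ppm in 70 members, 10 to 100 ppm in 61 and at least 100 ppm in 29.

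**Figure D2:**
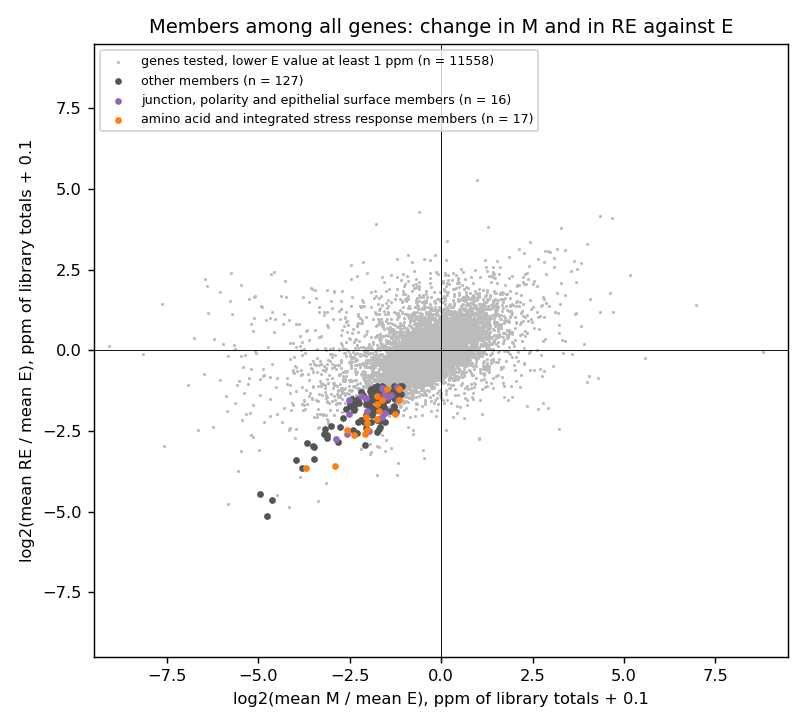
Mean M against E (horizontal) and mean RE against E (vertical), both as log2 ratios of ppm with 0.1 added, for 11558 genes with a lower E value of at least 1 ppm (grey) and the members by group. The members lie along the diagonal of the lower left corner, since the rule bounds all 3 ratios, and most other genes lie around 0.

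In the fit of all genes (limma, at least 2-fold and Benjamini-Hochberg adjusted p below 0.01), 124 members were called lower in M, where 8.39% of all genes were. In RE 135 were called lower (3.17% of all genes), and 111 were called lower in both (1.68%). Between M and RE no member was called higher in RE (8.08% of all genes) and 1 was called lower (4.79%). The rule used the same contrasts, so nothing is read from these counts, and the calls rest on few libraries. Without RE replicate 1 the fit called 44 genes of any kind for E vs. RE in place of 1302, and 160 without RE replicate 2.

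The rule was also applied to replicate 1 of each stage, and its genes were read in replicate 2. Of 623 genes so chosen, 95.2% were below E in both M and RE of replicate 2 and 30.3% were at most 1/2 of E, against 44.6% and 4.45% of all genes above the level. In the reverse order, 372 genes were chosen, and 94.6% and 56.2% met these conditions, against 50.1% and 6.82%. The whole rule was met again by 26.5% of the 623 and 44.4% of the 372, against 2.79% and 4.98%. Of the 623 genes 149 were members, and of the 372 genes 151 were. The libraries are those that the rule used and the values are on library totals, so these shares are no independent support for the members.

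RE values were above M without overlap in 67 members, where 52.3% of all genes tested were, and below M in 38 (27.1% of all genes), with 55 overlapping. With TMM scaling these counts were 49 (30.6%) and 65 (40.6%), where 37.9% and 40.2% of all genes tested lay above and below. Which way members lay between M and RE therefore turned on the scaling.

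The stress response group, put together after the values were seen, had 17 members. They covered the pathway's regulators, amino acid and one-carbon enzymes, transport and tRNA charging. Trib3, a pseudokinase induced by Atf4 that feeds back on it, was at 97.5 and 162 ppm in E, 23.5 and 25.8 ppm in M, and 20.02 and 21.6 ppm in RE. Chac1, a glutathione-degrading enzyme of the same response, was at 42.9 and 75.4 ppm in E, 16.2 and 18.8 ppm in M, and 17.6 and 19.8 ppm in RE. For both genes the M and RE libraries lay close together and far from either E library.

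Atf5, a transcription factor of the same family as Atf4, was at 64.7 and 73.4 ppm in E, 21.7 and 22.9 ppm in M, and 21.5 and 25.5 ppm in RE. Eif4ebp1, which restrains cap-dependent translation, was at 76.7 and 92.6 ppm in E, 33.6 and 36.4 ppm in M, and 18.8 and 24.4 ppm in RE. It kept 41.3% of E in M and 25.5% in RE, so that RE lay below M without overlap.

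Among enzymes, Psph makes serine from its phosphorylated precursor. It was at 130 and 165 ppm in E, 44.5 and 42.5 ppm in M, and 33.4 and 33.8 ppm in RE. Cth, which makes cysteine from cystathionine, was at 122 and 138 ppm in E, 24.0 and 19.3 ppm in M, and 21.8 and 24.9 ppm in RE. Cth kept 16.7% of the mean E level in M and 18.0% in RE. Pycr1, an enzyme of proline synthesis, was at 51.6 and 71.3 ppm in E, 15.1 and 13.5 ppm in M, and 9.86 and 10.3 ppm in RE. Gpt2, a mitochondrial alanine transaminase, was at 103 and 188 ppm in E, 36.4 and 33.7 ppm in M, and 33.6 and 36.5 ppm in RE. The E replicates of Gpt2 differed by 1.83 times, while its M and RE values overlapped.

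Aldh1l2, a mitochondrial folate enzyme, was at 44.0 and 112 ppm in E, 19.4 and 18.7 ppm in M, and 17.4 and 15.04 ppm in RE. Pck2, the mitochondrial form of PEP carboxykinase, was at 197 and 211 ppm in E, 73.7 and 71.0 ppm in M, and 88.8 and 87.6 ppm in RE. Pck2 and the mitochondrial protease Lonp1 were the stress response members in which RE lay above M without overlap. Lonp1 was at 394 and 563 ppm in E, 137 and 146 ppm in M, and 181 and 179 ppm in RE.

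Slc7a11, the cystine importer, was at 16.2 and 45.9 ppm in E, 7.45 and 7.70 ppm in M, and 5.23 and 5.84 ppm in RE. Sars and Cars charge tRNAs with serine and cysteine. Sars was at 649 and 627 ppm in E, 288 and 288 ppm in M, and 280 and 278 ppm in RE. Cars was at 398 and 435 ppm in E, 185 and 187 ppm in M, and 138 and 150 ppm in RE. Per kilobase of transcript, Sars (179 ppm per kb) and Cars (129 ppm per kb) had the highest mean E levels of the stress response group, and Vldlr (0.958 ppm per kb) the lowest.

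Of the secreted and surface products, Fgf21, a hormone-like growth factor, was at 4.06 and 6.54 ppm in E, 0.598 and 0.647 ppm in M, and 0.323 and 0.369 ppm in RE. Vldlr, a lipoprotein receptor, was at 3.96 and 11.3 ppm in E, 0.436 and 0.565 ppm in M, and 0.699 and 0.325 ppm in RE. Adm2, a peptide of the calcitonin family, was at 5.09 and 7.90 ppm in E, with M and RE values from 1.69 to 2.05 ppm. Vldlr had the largest fold of the group, its mean over M and RE being 15.1 times below E.

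**Figure D3:**
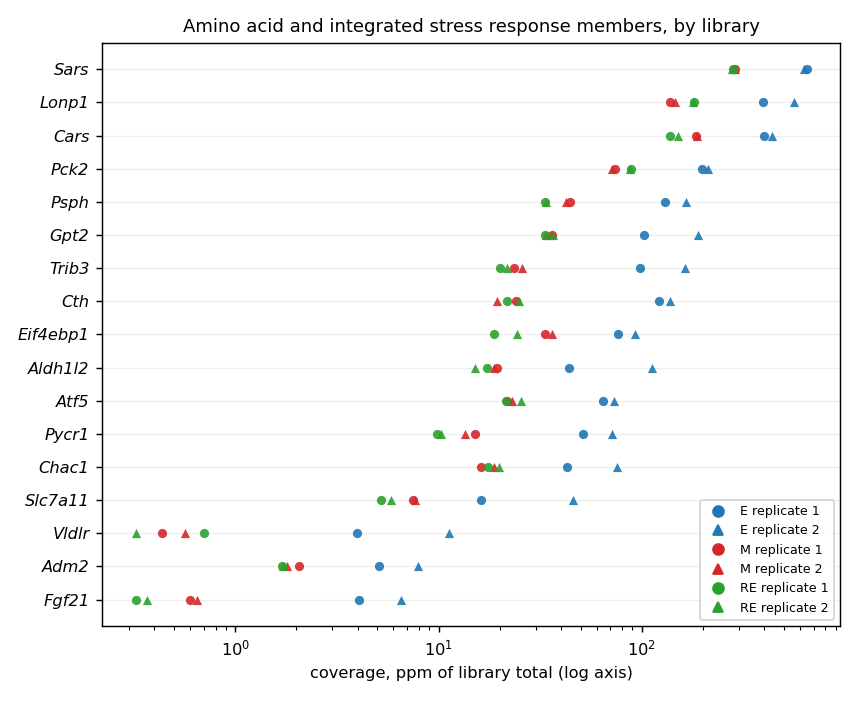
Coverage of the 17 stress response members in each library (ppm of library total, log axis), with circles for replicate 1 and triangles for replicate 2. In every gene both E libraries (blue) lie to the right of all M (red) and RE (green) libraries, and Slc7a11, Vldlr and Aldh1l2 have the widest gaps between their E points.

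RE lay below M without overlap in 10 of the 17 and above it in 2, where 27.1% and 52.3% of all genes tested did. With TMM scaling 12 lay below (70.6%) and 2 above (11.8%), where 40.2% and 37.9% of all genes tested did. The E replicates differed in 1 direction for this group. E replicate 2 was above replicate 1 in 16 of 17, and by more than 1.5 times in 8 (47.1%), against 42.1% and 12% of genes at this level. The spread reached 2.85 times for Vldlr, 2.83 times for Slc7a11 and 2.55 times for Aldh1l2. The rule compares with the lower E value, so each of the 17 was at most 1/2 of E replicate 1 alone. With TMM scaling 8 of the 17 still met the rule, and the others were at up to 59.6% of the lower E value.

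**Figure D4:**
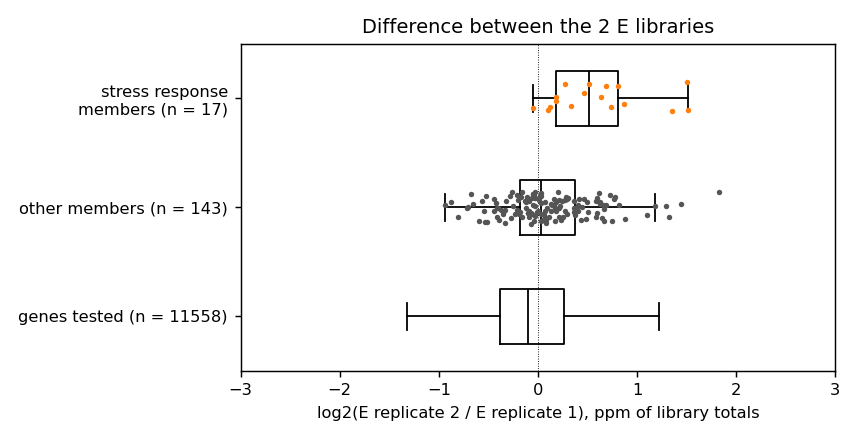
Log2 ratio of E replicate 2 to E replicate 1 (ppm of library totals) for genes tested with a lower E value of at least 1 ppm, members outside the stress response group and stress response members, as boxes of median and quartiles with whiskers to 1.5 times the box. All but 1 of the 17 stress response members lie to the right of 0, while the median of all genes lies to the left.

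A wider list of 60 genes of the Atf4 pathway, also compiled after the values were seen, put these members in context. M and RE both lay below E without overlap in 50 of the 60 (83.3%), where 29.8% of all genes tested did. Among the 43 that were not members it was 33 (76.7%), at a median of 59.7% of E in M and 53.3% in RE. These counts are on library totals, on which the bulk of genes is shifted down in M, and of the 43 the fit called 2 lower in both stages. Atf4 itself was at 887 and 745 ppm in E, 597 and 587 ppm in M, and 677 and 674 ppm in RE. Its RE values lay between M and E. Asns, which makes asparagine, was at 994 and 909 ppm in E, 473 and 456 ppm in M, and 293 and 323 ppm in RE, and missed the rule because M stayed just above 1/2 of E.

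Some genes of the list had other patterns. Ddit3, which encodes the stress factor Chop, was at 44.6 and 72.2 ppm in E, 17.8 and 20.2 ppm in M, and 67.3 and 60.0 ppm in RE, so RE overlapped E. Stc2, a secreted glycoprotein, was at 122 and 169 ppm in E, 1.36 and 1.33 ppm in M, and 29.8 and 23.1 ppm in RE, so RE stood above M but still at 18.2% of E. Slc38a2, an amino acid importer, was higher in both, at 221 and 303 ppm in E, 540 and 506 ppm in M, and 613 and 551 ppm in RE. Of 20 cytosolic aminoacyl-tRNA synthetases, Sars and Cars were the members. On library totals 15 of the 20 lay below E in M and RE without overlap (75%), where 29.8% of all genes tested did. The fit called 0 of the 20 lower in M (8.39% of all genes), 4 lower in RE (3.17%) and 0 lower in both (1.68%). The 18 others stood at a median of 71.2% of E in M and 60.0% in RE. Genes tested with a lower E value of at least 1 ppm stood at 79.7% and 92.4%.

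The junction, polarity and epithelial surface group had 16 members. With TMM scaling 11 of the 16 still met the rule, and with median-of-ratios scaling 10 did. Msln, St14, Rbm35a, Cldn4 and Prkcz met it with neither. Cldn4, Cldn7 and Cldn9 encode claudins, the strand proteins of tight junctions. Cldn4 was at 238 and 190 ppm in E, 83.2 and 81.2 ppm in M, and 81.8 and 82.3 ppm in RE. Cldn7 was at 147 and 125 ppm in E, 29.8 and 29.7 ppm in M, and 52.7 and 48.9 ppm in RE. The M and RE values of Cldn4 overlapped, while Cldn7 in RE stood 1.71 times above M, at 37.2% of E. Cldn9, far lower, was at 3.94 and 4.18 ppm in E and at 0.298 to 0.641 ppm in M and RE.

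Cgn encodes cingulin, which links tight junctions to actomyosin. It was at 112 and 138 ppm in E, 43.5 and 45.6 ppm in M, and 45.7 and 46.7 ppm in RE. Pard6b and Prkcz encode partners in the apical polarity complex. Pard6b was at 38.4 and 58.7 ppm in E, 12.5 and 11.2 ppm in M, and 12.7 and 13.7 ppm in RE. Prkcz was at 3.88 and 4.52 ppm in E, 1.21 and 1.41 ppm in M, and 1.85 and 1.81 ppm in RE. The M and RE libraries lay within a narrow range for Cgn and Pard6b, while for Prkcz RE was 1.40 times M.

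Tacstd1 (Epcam), an epithelial adhesion molecule, was at 389 and 299 ppm in E, 107 and 124 ppm in M, and 132 and 139 ppm in RE. Rbm35a (Esrp1), the splicing regulator that sets epithelial exon choice, was at 270 and 452 ppm in E, 81.3 and 91.4 ppm in M, and 133 and 128 ppm in RE. In RE these genes stood at 39.5% and 36.1% of the mean E level, and RE was 1.51 times M for Rbm35a and 1.17 times for Tacstd1.

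Several members act at the outer cell surface. St14, the membrane serine protease matriptase, was at 435 and 428 ppm in E, 181 and 192 ppm in M, and 195 and 200 ppm in RE. Its known target F2rl1, the receptor Par2, was at 8.92 and 13.8 ppm in E, 1.95 and 1.71 ppm in M, and 1.76 and 1.86 ppm in RE. F2rl1 stood at 16.2% of E in M and St14 at 43.3%. Klk8, a secreted kallikrein protease, was at 12.6 and 10.5 ppm in E, 3.53 and 4.33 ppm in M, and 2.77 and 3.09 ppm in RE.

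Msln, a cell-surface protein of mesothelia and some epithelia, had the highest E level per kilobase of the 148 members with a transcript length (347 ppm per kb). It was at 709 and 796 ppm in E, 353 and 313 ppm in M, and 259 and 264 ppm in RE. Its neighbour Mslnl was at 9.41 and 16.0 ppm in E, 2.90 and 3.48 ppm in M, and 1.44 and 2.91 ppm in RE. The barrier lipid genes Aloxe3 and 9530066K23Rik (Nipal4), both known for the skin barrier, were also members. 9530066K23Rik was at 12.4 and 13.1 ppm in E, 1.79 and 2.50 ppm in M, and 3.83 and 4.74 ppm in RE, close to the upper bound of the rule's RE to M range (1.99 times).

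**Figure D5:**
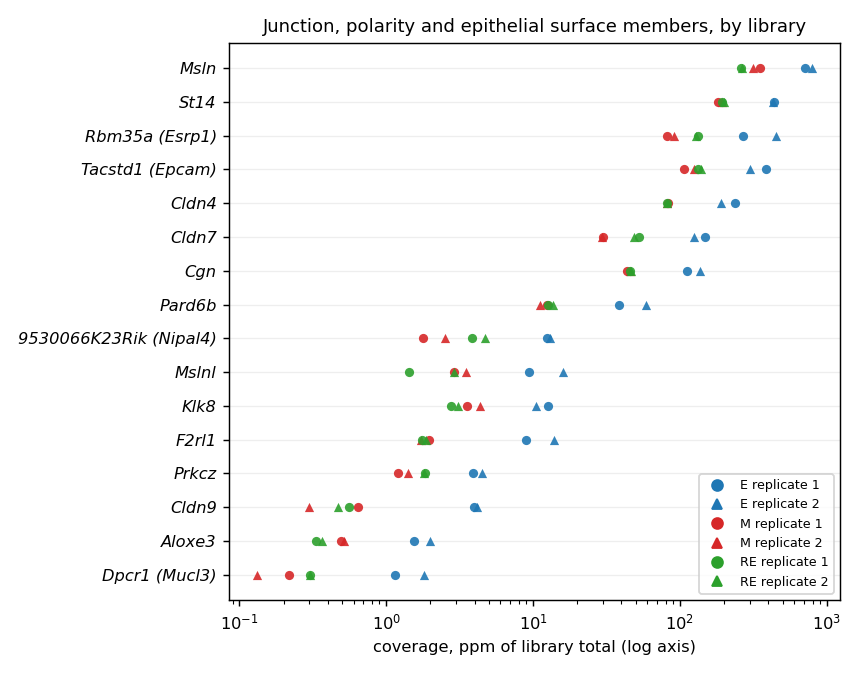
Coverage of the 16 junction, polarity and epithelial surface members in each library (ppm of library total, log axis), with circles for replicate 1 and triangles for replicate 2. Both E libraries (blue) lie to the right of all M (red) and RE (green) libraries in each gene. RE lies right of M without overlap in 9 of the 16 (56.25%), where 52.3% of all genes tested do. With TMM scaling it does in 5 (31.25%), where 37.9% of all genes tested do.

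A list of 30 tight junction and polarity genes, all tested, held 5 of these members (Cldn4, Cldn7, Cldn9, Cgn and Pard6b). Of the 30, 8 were called lower in both M and RE (26.7%, against 1.68% of all genes), of which Cldn3, Crb3 and Marveld3 were not members. The rule chose the other 5 as low in both stages, so nothing is read from that share. Of the 25 genes on the list that were not members, 3 were called lower in both, against 122 of 13733 nonmembers tested. Crb3, an apical polarity protein, was 4.95 lower in M on the log2 scale (log2 fold change -4.95, SE 0.25, adjusted p = 1.67e-05) and 2.53 lower in RE (-2.53, SE 0.25, adjusted p = 0.000722). It rose from M to RE by 2.42 (SE 0.25, adjusted p = 0.000354), which kept it outside the rule. Magi3, a junction scaffold, was higher in both M (1.13, SE 0.22, adjusted p = 0.00614) and RE (1.72, SE 0.22, adjusted p = 0.00202). The list's median log2 fold change was -1.01 in M and -0.79 in RE, against 0.00 and 0.01 over all genes tested.

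Of 14 epithelial cell markers tested, 6 were called lower in both M and RE (42.9%, against 1.68% of all genes). The 6 were the members Tacstd1, Cldn4, Cldn7 and Rbm35a, chosen as low in both, and the nonmembers Cldn3 and Rab25. Of the 10 markers tested that were not members, 2 were thus called. Several of the 6 are also in the tight junction list. Of 25 genes tested on a list of epithelial transcription factors, 10 were called lower in M, where 8.39% of all genes were. In RE 1 was called lower and 5 higher, where 3.17% of all genes were called lower and 6.2% higher. The 1 lower in RE, also lower in M, was Rbm35a, which encodes a splicing regulator and not a transcription factor. Of the 24 other genes tested on that list, none was called lower in both. Of 24 membrane serine proteases, kallikreins and inhibitors, 3 were lower in both (12.5%, against 1.68% of all genes). They were the member Klk8 and the nonmembers Tmprss11e and Klk10. Of 13 keratins and 37 S-phase and G2/M genes, none was lower in both, where 1.68% of all genes were. Over all 19 pathway lists, 24 of 528 genes were lower in both (4.55%, against 1.68% of all genes). Of these 24, 10 were members, which the rule chose as low in both.

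Among regulators, Foxj1, the factor that drives formation of motile cilia, was at 254 and 266 ppm in E, 79.8 and 82.2 ppm in M, and 46.0 and 67.3 ppm in RE. Its RE values lay below M. Myb, a factor that also acts in the formation of multiciliated cells and was picked after its values were seen, was not a member. It was at 5.68 and 5.24 ppm in E, 0.924 and 0.833 ppm in M, and 4.83 and 5.24 ppm in RE, so that RE overlapped E.

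Myc, a growth-promoting transcription factor, was at 256 and 359 ppm in E, 74.0 and 64.2 ppm in M, and 118 and 119 ppm in RE. Fosb, a subunit of AP-1, was at 60.7 and 41.5 ppm in E, 4.33 and 3.44 ppm in M, and 6.21 and 7.69 ppm in RE. These stood above M in RE without overlap, at 1.71 and 1.79 times, yet at 38.5% and 13.6% of E. Phf10, a subunit of the PBAF chromatin remodelling complex, was at 352 and 387 ppm in E, 115 and 110 ppm in M, and 109 and 114 ppm in RE.

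Of the p38 MAP kinases, Mapk13 was at 151 and 113 ppm in E, 24.8 and 24.4 ppm in M, and 39.7 and 36.4 ppm in RE. Mapk12 was at 30.3 and 26.2 ppm in E and at 11.1 to 11.4 ppm in the M and RE libraries. M and RE overlapped for Mapk12, while Mapk13 in RE was above M. Dusp5, a phosphatase that inactivates Erk, was at 82.5 and 84.3 ppm in E, 26.7 and 26.9 ppm in M, and 22.8 and 22.7 ppm in RE. The adaptor Grb7, which binds ErbB receptors, was at 46.5 and 36.4 ppm in E, 13.0 and 13.7 ppm in M, and 16.0 and 15.9 ppm in RE.

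Glycan synthesis gave 8 members. Fut1, which adds the fucose of the H blood group antigen, was at 10.6 and 14.2 ppm in E, 0.952 and 1.04 ppm in M, and 1.35 and 1.67 ppm in RE. B4galnt3 and B4galnt4 make the LacdiNAc unit of glycans. B4galnt3 was at 43.0 and 64.4 ppm in E, 11.4 and 10.2 ppm in M, and 8.73 and 9.43 ppm in RE. B4galnt4 was at 72.0 and 70.01 ppm in E, 21.0 and 21.0 ppm in M, and 27.6 and 32.1 ppm in RE. In RE, B4galnt3 lay below its M values and B4galnt4 above them. B3gnt3, which extends O-glycan cores, was at 24.7 and 30.4 ppm in E, 9.004 and 9.58 ppm in M, and 10.3 and 12.02 ppm in RE.

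The other glycan members, Galnt12, Chst7, B4galt4 and the oligosaccharyltransferase subunit Krtcap2, kept between 25.2% and 40.8% of their mean E level in M and between 26.7% and 37.3% in RE. Of the 38 tested genes in the same families by symbol, 7 were members and 13 (34.2%) lay below E in M and RE without overlap, near the 29.8% of all genes tested. Of the 31 that were not members, 6 did (19.4%). Chst2 went the other way in M, at 44.3 and 38.5 ppm in E, 402 and 420 ppm in M, and 46.1 and 58.6 ppm in RE.

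Metabolic and transport members held the largest folds. Cox6a2, the heart and muscle form of a cytochrome oxidase subunit, was at 2.05 and 3.26 ppm in E and at or under 3 reads' worth in every M and RE library. Its mean in E was at least 37.7-fold above the highest such floor. Soat2, a cholesterol-esterifying enzyme, was at 4.82 and 17.1 ppm in E, 0.339 and 0.271 ppm in M, and 0.145 and 0.279 ppm in RE. Car6, a secreted carbonic anhydrase, was at 12.3 and 20.4 ppm in E, 0.392 and 0.472 ppm in M, and 0.622 and 0.673 ppm in RE. Soat2 had the widest gap between E replicates of any member, at 3.55 times.

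Atp2a3, a calcium pump of the endoplasmic reticulum, was at 4.49 and 6.94 ppm in E, 0.290 and 0.250 ppm in M, and 0.399 and 0.511 ppm in RE. Acot2, a mitochondrial acyl-CoA thioesterase, was at 22.1 and 55.2 ppm in E, 5.31 and 5.85 ppm in M, and 6.85 and 7.73 ppm in RE. Rpia, of the pentose phosphate pathway, was at 63.2 and 71.2 ppm in E, 12.1 and 11.8 ppm in M, and 19.4 and 24.0 ppm in RE. RE was above M without overlap in all 3. Over the 17 metabolic members it was above in 8 (47.1%) and below in 5 (29.4%), where 52.3% and 27.1% of all genes tested were. With TMM scaling 7 lay above and 7 below (41.2% each), where 37.9% and 40.2% of all genes tested did. E replicate 2 was above replicate 1 in 13 of the 17 metabolic members (76.5%), and by more than 1.5 times in 7 (41.2%). Among the 16 junction and surface members these counts were 11 and 5. Of all genes tested with a lower E value of at least 1 ppm, 42.1% and 12% did so. Ghitm, a protein of the inner mitochondrial membrane, was the most abundant of them at 441 and 432 ppm in E, 182 and 176 ppm in M, and 203 and 202 ppm in RE.

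Immune signalling and recognition genes gave 14 members. Of 11 leukocyte markers measured, Ptprc and Cd3e were among those at the floor in every library. The 11 summed to 19.7 to 21.8 ppm in E and 34.1 to 57.5 ppm in M and RE. As 7 of the 11 were below 1 ppm in every library, the sum rests on few genes. The source of these members' coverage was not tested. Itgb2, an integrin chain of leukocytes, was at 49.3 and 44.1 ppm in E, 16.7 and 10.9 ppm in M, and 7.76 and 8.39 ppm in RE. Tigit, a receptor of T and NK cells, was at 46.5 and 34.2 ppm in E, 5.02 and 4.87 ppm in M, and 7.30 and 8.53 ppm in RE. Ptpn22, a phosphatase of lymphocyte signalling, was at 6.54 and 5.50 ppm in E and at 0.402 to 0.517 ppm in M and RE. For Tigit and Ptpn22 the E values were at least 4 times every M and RE value.

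Some members are known for near copies or share a clone name, and their sequences were not compared, so their coverage is uncertain. These are Klra1 and Klra4 of the Ly49 receptors, the class I gene H2-Q9, Rnaset2a, Hmga1, the ribosomal protein gene Rps18, and the clone-named pair AL837506.3-1 and AL837506.3-2. Klra4 was at 15.5 and 16.2 ppm in E, 3.71 and 3.53 ppm in M, and 2.02 and 1.97 ppm in RE.

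In the gene order, 150 members could be placed, and 3 pairs of members were immediate neighbours among measured genes, namely Mslnl and Msln, Anks6 and Galnt12, and Fgf21 and Fut1. Overlapping or neighbouring transcripts may share coverage. Members' transcripts were shorter than those of all genes tested, with medians of 2614.5 and 3346 bases, and their GC content was 52.1% against 49.9%. The ratio of observed to expected CpG in promoters had a median of 0.617 in members and 0.753 in all genes tested. These medians are descriptions, and whether they differ was not tested.

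At the edge of the fold condition, Msln, Lrdd and Oxnad1 were the nearest inside. Their lower E values were 2.01, 2.01 and 2.02 times the highest M or RE value. The nearest outside were Rhbdl1, Tpd52l1 and Ulk4, at 1.99, 1.99 and 1.98 times. The remaining 73 members were in no named group. They ranged in mean E from 1.07 ppm (Tmem162) to 341 ppm (Atg9b, an autophagy gene), and RE lay above M without overlap in 34 of them (46.6%) and below it in 12 (16.4%), where 52.3% and 27.1% of all genes tested did. With TMM scaling the counts were 24 and 23.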

How the data were processed

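RNA of 6 EpH4 libraries was analysed, 2 each of E, M and RE cells. The submitters' processing notes name Bowtie, TopHat2 and edgeR, and the study's methods give the NCBI-m37 mouse build. Versions and the step that summed reads per gene are not given in the sources used here. The authors deposited 1 table of whole numbers per gene, without normalization, which behave as coverage (signal) in sequenced bases: 44.8% to 48.4% of values from 1 to 400 are multiples of 50. They were therefore not tested as counts. Precision is limited by the 2 libraries per stage rather than by depth, which stands for counting error alone.

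Values were divided by library totals for the rule. Background calls used limma 3.58.1 (R 4.3.3) on log2(TMM-scaled ppm + 0.1), where TMM trimmed 30% of ratios and 5% of levels per side, with all 6 libraries, group only and a trend on mean level, for the 13893 genes that reached 500 bases in 2 or more libraries. A call required more than 1 log2 unit of change and an adjusted p (Benjamini-Hochberg) under 0.01. The smallest exact p for 2 against 2 libraries is 0.333, so no single-gene permutation test was run. The rule and the fit were tested on simulated data. Python 3.11.15 was used for the rest.

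The members and lists were chosen with earlier results of these data known. Members named were those with the largest fold, highest E level, widest E replicate gap, extreme RE to M ratio, nearest the threshold, at the floor in M and RE, next to another member, or highest in E within a pathway list. Others were picked after their values were seen, as were the functional groups, the Atf4, synthetase and glycan lists and the 14 motifs. Alternatives changed the scaling, filter, pseudocount, rule thresholds, libraries and replicate block. Promoters, lengths and names came from newer annotations, matched by symbol (150 of 160 members had a RefSeq match), and no coordinates were moved between builds. Results for some items are not reported here.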

Additional observations from a re-analysis of the deposited data

How the results depend on the processing

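The number of members was 38 when M and RE had to be at most 1/3 of the lower E value, and 558 at 1/1.5. It was 103 with a lower E value of at least 5 ppm, 623 with replicate 1 libraries only and 372 with replicate 2 libraries only. Leaving out 1 library gave 169 to 449 members, since fewer values then had to pass, with 315 without E replicate 1 and 449 without E replicate 2. TMM scaling gave 113 genes (103 of them members) and median-of-ratios 109 (100 of them members).

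Counts of genes called were 2358 for E vs. M, 1302 for E vs. RE and 1789 for M vs. RE, with 24 list genes lower in both. Fitting only the 2 groups compared gave 525 for E vs. RE and 14 list genes. Leaving out 1 library gave 945 to 3362 genes for E vs. M, 44 to 2348 for E vs. RE, 683 to 2337 for M vs. RE and 0 to 38 list genes, the lone library of a stage being assumed to vary like the others. For E vs. RE the count was 44 without RE replicate 1 and 160 without RE replicate 2, and the list genes numbered 0 and 2. It was 2348 without E replicate 2, and 673 and 676 without M replicates 1 and 2, with 10 list genes each. For E vs. M it was 945 without M replicate 1 and 1003 without M replicate 2. For M vs. RE it was 718 and 767 without M replicates 1 and 2, and 683 and 821 without RE replicates 1 and 2. The 38 list genes came without E replicate 1. The cause of these shifts was not tested beyond the smaller number of libraries. With the replicate block the counts were 2431, 1284, 1830 and 25. Deviations of same-numbered libraries correlated at 0.27 (E with M), 0.06 (E with RE) and 0.12 (M with RE). The labels give these libraries a shared number, and whether they were paired is not known. For the named members, the fold moved by more than the replicate spread in 205 comparisons with an alternative and did not in 523. Calls of the named list genes kept their side of the threshold in 1659 such comparisons, lost it in 156 and gained it in 23. Neither reversed. Depth was not the main limit at the E levels described, but members near 1 ppm have M and RE values of few reads.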
